A study of Mus musculus with 2 samples.

Results

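The genes described here are 10 receptors and bridging proteins for apoptotic cells: Mertk, Axl, Gas6, Pros1, Itgav, Itgb5, Mfge8, Cd36, Msr1 and Timd4. They were chosen by symbol from the 55357 genes of the count tables, and each symbol matched 1 row. A phagocyte recognises a dying cell by phosphatidylserine exposed on its surface. Some receptors bind this lipid directly, while others reach it through secreted bridging proteins that hold the lipid at one end and the receptor at the other. Microglia use these receptors to clear dead cells and debris, and receptors of this group are also known for the removal of synapses.

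CD45+CD11b+ cells were sorted from cortices of mice aged 8 weeks, and 1 library was made from wild-type mice and 1 from Moesin Knockout mice, which lack the membrane-to-actin linker encoded by Msn. The cortices of 5 to 6 mice were pooled for each library, and C57BL/6 is named for the knockout mice. For the wild-type mice no strain is given in the sources used here, nor for either group the sex or the deleted part of Msn. RNA was read from its 3′ end on the 10x Genomics platform and counted as unique molecular identifiers (UMIs). With 1 pooled library per genotype there were no replicates, so no test was made, genotype and library cannot be told apart, and each interval below is 95%, exact and for counting error only.

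There were 5842 barcodes with 68576464 UMIs from wild-type mice and 9038 with 67575835 from knockout mice. Kept cells, with at least 500 genes and at most 10% mitochondrial UMIs, numbered 5577 and 7573, at median depths of 7178 and 5455 UMIs. The libraries shared 13 barcode sequences, of which 12 were kept in both. Cells were sorted into classes by gate genes: P2ry12 and Tmem119 for microglia, Ace or Ly6c2 for monocytes, and Mrc1 and Pf4 for border macrophages, which live in the meninges and around vessels. Microglia numbered 4968 wild-type and 4436 knockout cells, monocytes 55 and 660, and border macrophages 24 and 131. Cells that met more than 1 gate were left out, and more of them came from the knockout library. They were 185 wild-type and 513 knockout cells of the microglia and border gates, and 102 and 481 of the microglia and monocyte gates. Other combinations held 21 and 312 cells. Median depths were 21462 and 13179, 18367 and 11749, and 43912 and 24495 UMIs, against 7206 and 5566 in microglia. A set of 67 lymphoid cells in the knockout library served as a class that should lack most of these genes, and the wild-type library had 0 such cells. The 8 microglial check markers, which the gate did not use, were all detected in microglia of both libraries. The 8 border macrophage markers were all detected in border macrophages, where they summed to 5330 and 4482 CPM (counts per 1000000 UMIs of the class). Detection alone does not separate these classes: microglia also held all 8 border markers (249 and 209.7 CPM summed), and border macrophages all 8 microglial ones, at a median of 12.5% and 19.2% of the microglial level. The 6 patrolling monocyte markers summed to 3405 and 4011 CPM in monocytes with an Ace UMI and to 560 and 588 CPM in those with Ly6c2 and no Ace. The 6 classical monocyte markers, of which Ly6c1 was at 0 in the cells with Ly6c2 and no Ace, summed to 4140 and 3640.1 CPM in the first kind and to 9063 and 8400.0 CPM in the second. Neutrophil markers summed to 1512 and 8776 CPM in the second kind, in the knockout library above the classical monocyte markers. Markers of choroid plexus and ependyma, a tissue known to express Ace, were at 0 (0 of 4 detected) in wild-type and 804 CPM (4 of 4) in knockout monocytes with Ace. Erythroid markers, 4 of 4 detected in both libraries, summed to 89.5 and 473 CPM in microglia. The median mitochondrial share per barcode was 1.45% and 0.557%. The part of these differences in the results below was not tested.

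Msn itself stood at 320 CPM (315 to 325) in wild-type and 20.5 CPM (19.0 to 22.1) in knockout microglia. It was 736 against 53.2 CPM in monocytes and 271 against 8.38 CPM in border macrophages, where the knockout level rests on 4 UMIs. The libraries thus differed at the targeted gene in the direction of their labels in all 3 classes, although the RNA end that was read need not lie in the deleted part.

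No class held the highest level of all 10 genes, as the plot of levels by class shows. In both libraries Mertk, Pros1, Itgav and Itgb5 stood highest in microglia, Gas6, Axl, Msr1 and Timd4 in border macrophages, and Cd36 in monocytes with Ace. In the wild-type library the intervals overlapped for Itgav between microglia and monocytes with Ace and for Msr1 between border macrophages and both kinds of monocyte. Levels are compared below within a gene, between classes or libraries, and never between genes. Axl and Timd4 overlap no other annotated gene, while the other 8 overlap at least 1, mostly long noncoding RNAs on the other strand, and how reads over both were assigned is not given in the sources used here.

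**Figure D1:**
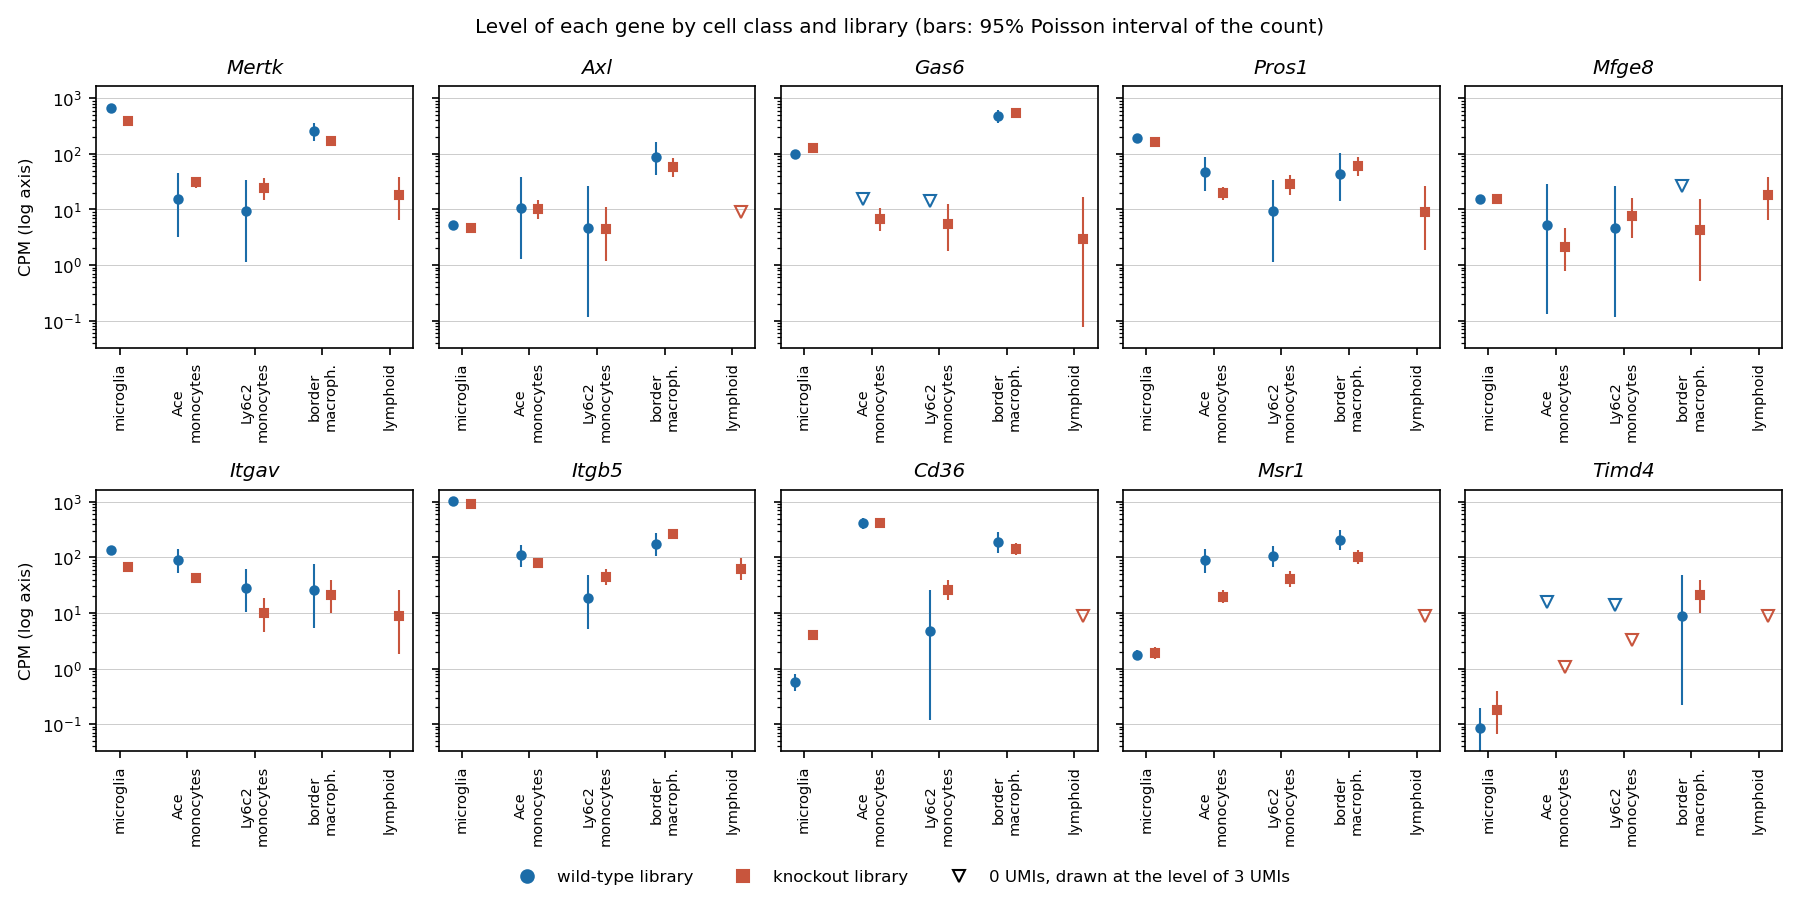
CPM on a log axis for each of the 10 genes in 5 cell classes, with wild-type circles, knockout squares and bars for the exact Poisson interval. Open triangles mark 0 UMIs and are drawn at the level of 3 UMIs. Mertk is highest in microglia (665 and 386 CPM), Gas6 in border macrophages (472 and 540 CPM) and Cd36 in monocytes with Ace (414 and 413 CPM).

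Calls between the libraries rest on size and on no test: a gene counted as higher or lower where its knockout to wild-type ratio, after the median over measured genes of its class was taken off, reached 1.5-fold. Measured genes had at least 10 CPM in 1 library and 20 UMIs over both. The median plain CPM ratio of all measured genes was −0.29 (log2) in microglia, −0.19 in monocytes and −0.00 in border macrophages. In microglia, 6 of the 10 genes were measured, 1 was called lower (Itgav), against 12.4% of all 8715 measured genes, and 1 higher (Gas6), against 14.9%. In monocytes 6 were measured, 1 was called lower (Msr1), against 21.2% of 7484 genes, and 2 higher (Mertk and Cd36), against 20.1%. In border macrophages 7 were measured, 1 was called lower (Msr1), against 24.7% of 4155 genes, and 0 higher, against 21.3%. With 6 or 7 genes measured and shares of this size, nothing is read from these counts about the 10 genes as a set. Their median relative log2 ratio was 0.08 in microglia, 0.15 in monocytes and −0.43 in border macrophages, against 0 for all measured genes by construction.

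**Figure D2:**
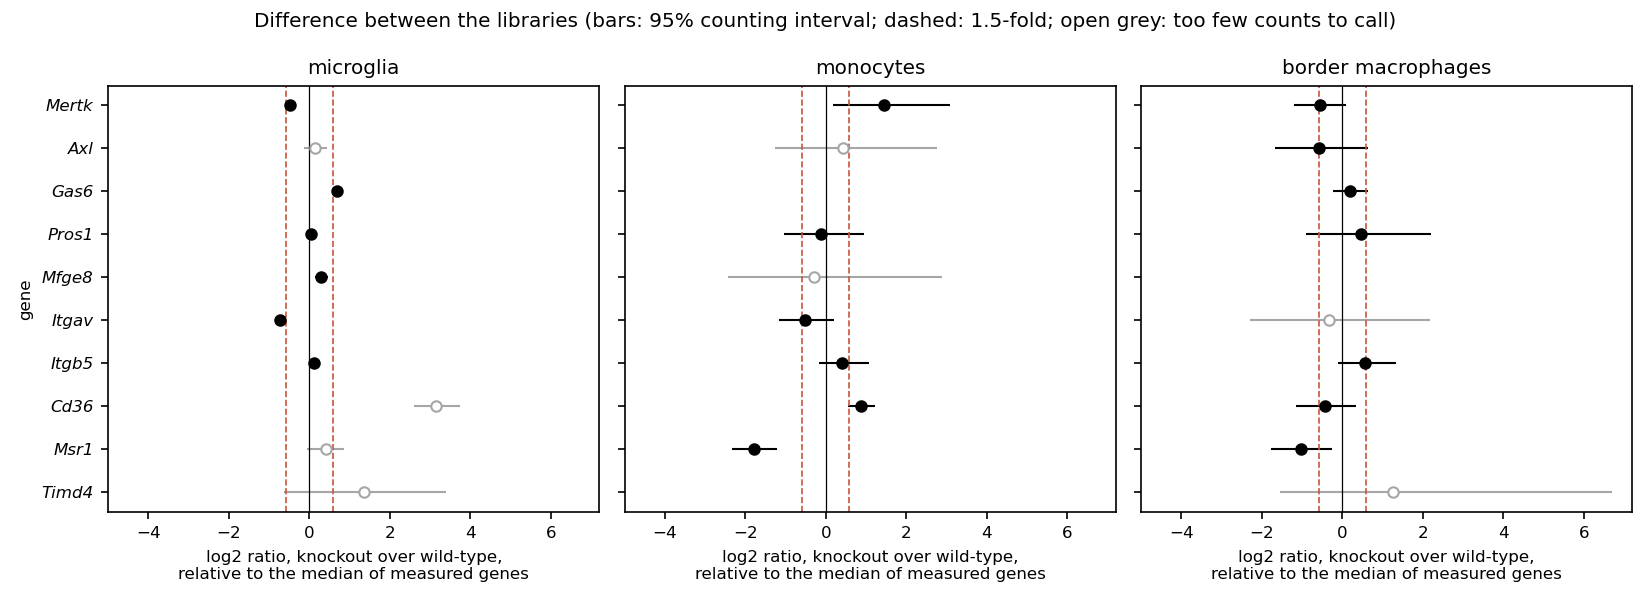
Log2 ratio of knockout over wild-type, relative to the median of measured genes, in microglia, monocytes and border macrophages. Points are genes, bars the exact counting interval, dashed lines 1.5-fold, and open grey points genes with too few counts to call. Itgav (−0.74) and Gas6 (0.69) lie outside the dashed lines in microglia, and Msr1 lies below them in monocytes (−1.78) and border macrophages (−1.03).

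Mertk and Axl are receptors of the TAM family of tyrosine kinases. Mertk (ENSMUSG00000014361, chromosome 2, 128540729 to 128645080, plus strand, GRCm39), the TAM receptor of resting phagocytes, was at 665 CPM (659 to 672) in wild-type and 386 CPM (380 to 393) in knockout microglia. The plain log2 ratio was −0.78 and the relative one −0.49 (−0.52 to −0.46), so Mertk was under the 1.5-fold limit once the shift of all genes was taken off and past it on plain CPM. Every cell was then thinned to 2000 UMIs, which dropped 136 and 343 shallower microglia. A Mertk UMI was found in 70.8% (69.5 to 72.1) of the 4832 wild-type cells that remained and in 50.7% (49.1 to 52.2) of the 4093 knockout cells. The unthinned shares were 94.3% and 80.8%. Cells with 4 or more Mertk UMIs of 2000 made up 4.86% and 1.08%.

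The Mertk difference was alike at every depth. In 5 bands of UMIs per cell, from 1000 to 3000 up to 20000 or more, its relative log2 ratio lay between −0.48 and −0.44. Microglia with 0 and with 2 or more UMIs of Ccl3 and Ccl4, chemokine genes, had Mertk at 637 and 649 CPM in the wild-type library and at 369 and 365 CPM in the knockout library. A split by the heat shock genes Hspa1a and Hspa1b gave 651 and 657 CPM against 372 and 378 CPM. The Mertk level thus differed between the libraries on both sides of each of these splits and by little within a library.

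Outside microglia, Mertk stood at 253 CPM (170 to 364) in wild-type and 172 CPM (137 to 213) in knockout border macrophages, a relative log2 ratio of −0.56 (−1.19 to 0.10). These levels were 38.1% and 44.4% of those in microglia. The 8 microglial check markers stood at 2.70 to 63.3% (median 12.5%) of their microglial level in wild-type and at 11.7 to 73.1% (median 19.2%) in knockout border macrophages, and the part of microglial RNA in the result was not tested. In border macrophages without any P2ry12 or Tmem119 UMI, Mertk was lower than in microglia by a log2 ratio of −1.67 and −1.04. In all border macrophages these ratios were −1.39 and −1.17. Less microglial RNA would itself lower Mertk in these cells, so nothing is read from this about that RNA.

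In monocytes Mertk was called higher in the knockout library, but on low counts: 5 UMIs (12.3 CPM, 4.01 to 28.8) in wild-type and 108 UMIs (29.2 CPM, 23.9 to 35.2) in knockout cells, a relative log2 ratio of 1.43 (0.17 to 3.08). The levels were 1.86% and 7.55% of those in microglia, while the microglial check markers reached 2.98 to 6.39% and 2.67 to 7.26%. Thinned, 4.53% (3.03 to 6.48) of 618 knockout monocytes had a Mertk UMI, and 1.52% (0.0384 to 8.16) of 66 lymphoid cells, at median depths of 5187.5 and 4002 UMIs before thinning. The intervals overlap, and a difference between these shares was not detectable at this depth. The part of RNA from microglia in the Mertk level of monocytes was not tested. With cells that met several gates counted in, the ratio turned to −0.70.

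Axl (ENSMUSG00000002602, chromosome 7, 25456535 to 25488329, minus strand), the TAM receptor known from activated macrophages and dendritic cells, stood highest in border macrophages among the summed classes. It was at 87.4 CPM (41.9 to 161, 10 UMIs) in wild-type and 58.6 CPM (39.0 to 84.7, 28 UMIs) in knockout border macrophages, and at 5.24 and 4.72 CPM in microglia, too low to be called between libraries. In monocytes it was at 7.41 and 8.64 CPM. Border macrophages exceeded microglia by 16.7-fold (log2 4.06, 2.99 to 4.96) and 12.4-fold (log2 3.63, 3.00 to 4.22). The 67 lymphoid cells had 0 Axl UMIs, which at 3 counts allows a UMI in up to 4.48% of such cells and does not limit how many express the gene.

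Axl was not even within the classes. In thinned microglia with 2 or more UMIs of the disease-associated genes Lpl, Cst7, Itgax, Spp1, Clec7a and Gpnmb, Axl was at 30.8 CPM (8.38 to 78.8) in 65 wild-type cells and 64.1 CPM (20.8 to 150) in 39 knockout cells. In microglia with 0 such UMIs it was at 2.87 CPM (1.87 to 4.20) and 3.99 CPM (2.71 to 5.66). Within each library the intervals do not overlap, although the higher levels rest on 4 and 5 UMIs. Between these stood 237 and 165 cells with 1 UMI, which were left out. Mertk did not follow: it was at 562 CPM (440 to 706) against 650 CPM in the wild-type and at 385 CPM (259 to 549) against 374 CPM in the knockout library. Wild-type Axl by interferon genes (Ifit1, Ifit2, Ifit3, Mx1, Isg15, Rsad2) was at 20.3 CPM (4.18 to 59.2, 3 UMIs) with 2 or more UMIs and 3.16 CPM (2.10 to 4.56) with 0. By Ccl3 and Ccl4 it was at 4.66 and 2.29 CPM, and by Hspa1a and Hspa1b at 0 and 3.75 CPM. The intervals overlapped within each of these splits.

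Knockout border macrophages also divided by Axl. The 19 cells with 10 or more thinned UMIs of MHC class II genes, which present antigen, had Axl at 237 CPM (108 to 450), and the 72 cells under 10 had 13.9 CPM (1.68 to 50.2). The 5 and 16 wild-type cells of these kinds gave 100 CPM (2.53 to 557) and 125 CPM (34.1 to 320), on 1 and 4 UMIs, so the wild-type library was too small to show whether it divides in the same way. In the knockout library 5 cells lay near the limit, at 7 to 12 UMIs, and in the wild-type library 0.

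Gas6 and Pros1 are the secreted bridging proteins of the TAM receptors, related vitamin K-dependent proteins that bind phosphatidylserine. They did not move together: in microglia Gas6 was called higher in the knockout library and Pros1 was not. The sequences just upstream of both genes, and of Itgav, which was called lower, are given as a description. Each is the stretch of 250 bases before the outermost gene start of the GENCODE annotation, read 5′ to 3′ on the gene's strand from GRCm39, and capitals mark matches to the searched motifs on either strand. Gas6 is at chr8:13544825-13545074 (minus strand), Pros1 at chr16:62674025-62674274 (plus strand) and Itgav at chr2:83554153-83554402 (plus strand).
Gas6: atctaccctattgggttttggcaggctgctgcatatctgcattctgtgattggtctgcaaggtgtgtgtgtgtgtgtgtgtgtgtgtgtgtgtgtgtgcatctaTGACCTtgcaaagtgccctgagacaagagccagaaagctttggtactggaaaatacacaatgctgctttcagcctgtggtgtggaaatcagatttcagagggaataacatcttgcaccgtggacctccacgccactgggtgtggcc
Pros1: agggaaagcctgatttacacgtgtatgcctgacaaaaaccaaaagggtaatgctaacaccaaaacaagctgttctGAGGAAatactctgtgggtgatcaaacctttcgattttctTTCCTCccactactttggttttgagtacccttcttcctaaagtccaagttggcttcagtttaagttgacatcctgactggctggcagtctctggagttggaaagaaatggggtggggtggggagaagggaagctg
Itgav: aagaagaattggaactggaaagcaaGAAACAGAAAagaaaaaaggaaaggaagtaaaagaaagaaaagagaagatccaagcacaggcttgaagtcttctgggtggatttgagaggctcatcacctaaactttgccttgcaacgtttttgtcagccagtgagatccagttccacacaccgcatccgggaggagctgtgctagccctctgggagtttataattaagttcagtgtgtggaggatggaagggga

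The motifs searched were GAGGAA, the core of the box bound by PU.1-type factors, AGGTCA, the hexamer bound by nuclear receptors, and the interferon element bound by interferon regulatory factors, which is 2 copies of GAAA with 2 bases between. GAGGAA was in the windows of 3 of the 10 genes (Mertk, Pros1 and Mfge8) and in 22.9% of the 21769 windows of all protein-coding genes. AGGTCA was in 2 (Gas6 and Timd4), against 13.9%, and the interferon element in 1 (Itgav), against 3.44%. A match says only that these letters are present, and the outermost annotated start need not be the start used in these cells.

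Gas6 (ENSMUSG00000031451, chromosome 8, 13515371 to 13544824, minus strand), whose locus overlaps Tmem255b on the other strand, stood at 98.5 CPM (95.9 to 101) in wild-type microglia and at 130 CPM (126 to 133) in knockout microglia. Its relative log2 ratio was 0.69 (0.63 to 0.75). On plain CPM it was 0.40, which is under 1.5-fold, so the call rests on the shift of all genes. A Gas6 UMI was found in 17.0% (16.0 to 18.1) and 22.1% (20.9 to 23.4) of thinned microglia, and in 55.1% and 52.2% before thinning. Over the 5 depth bands the ratio ran from 0.56 to 0.84, and in the band of 10000 to 20000 UMIs it was under the limit.

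The class with most Gas6 was the border macrophages, at 472 CPM (354 to 616) in wild-type cells and 540 CPM (476 to 610) in knockout cells, 4.79-fold and 4.17-fold above microglia. Of thinned border macrophages, 71.4% (47.8 to 88.7) of 21 and 57.1% (46.3 to 67.5) of 91 had a Gas6 UMI. The relative log2 ratio between the libraries was 0.20 (−0.23 to 0.65) there. Monocytes had 0 Gas6 UMIs in the wild-type library, which limits the level to 7.41 CPM at 3 UMIs, and 24 UMIs (6.48 CPM) in the knockout library.

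Within knockout border macrophages Gas6 ran opposite to Axl. It was at 715 CPM (584 to 867) in the cells under 10 MHC class II UMIs and 184 CPM (74.1 to 380) in those with 10 or more. Cells with a UMI of Lyve1, a gene of perivascular and leptomeningeal macrophages, had Gas6 at 853 CPM (648 to 1103) and cells without at 456 CPM (341 to 598). The wild-type values were 625 CPM (382 to 965) and 300 CPM (61.9 to 877) by MHC class II, and 500 CPM (229 to 949) with and 583 CPM (319 to 979) without Lyve1, with overlapping intervals.

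Pros1 (ENSMUSG00000022912, chromosome 16, 62674275 to 62749710, plus strand), protein S, was at 196 CPM (193 to 200) in wild-type and 164 CPM (160 to 168) in knockout microglia. The relative log2 ratio was 0.03 (−0.01 to 0.08) and the plain one −0.26, so its sign depends on the scaling. In border macrophages Pros1 was at 43.7 CPM (14.2 to 102, 5 UMIs) and 60.7 CPM (40.7 to 87.2), lower than in microglia by a log2 ratio of −2.17 and −1.43. In monocytes it was at 27.2 CPM (13.6 to 48.6) and 21.9 CPM (17.4 to 27.2). The kinds of monocyte were called in opposite directions on few UMIs. Cells with Ace were at 47.2 CPM (9 UMIs) in wild-type and 19.7 CPM (55 UMIs) in knockout mice, which is −1.03 (−2.06 to 0.17) as a relative log2 ratio. Cells with Ly6c2 and no Ace were at 9.33 CPM (2 UMIs) and 28.4 CPM (26 UMIs), a ratio of 1.63 (−0.37 to 4.75). Both intervals include 0. In the cells with Ly6c2 and no Ace, Pros1 was under 10 CPM in the wild-type library and counted as measured through the knockout library. Its direction there follows from the floor. That call was kept under 9 of 15 alternatives, and the call in cells with Ace under 14. The order of the classes was the reverse of that of Gas6 between microglia and border macrophages, in both libraries.

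A receptor and a bridging protein were often seen in the same microglia. At 2000 UMIs, 32.1% of wild-type and 21.5% of knockout microglia had a UMI both of Mertk or Axl and of Gas6 or Pros1. Cells with a bridging UMI had a receptor UMI in 72.0% of 2155 wild-type cells, and cells without in 70.2% of 2677. In the knockout library these shares were 50.4% of 1749 and 51.6% of 2344. A receptor UMI was thus about as frequent with as without a bridging UMI within each library.

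**Figure D3:**
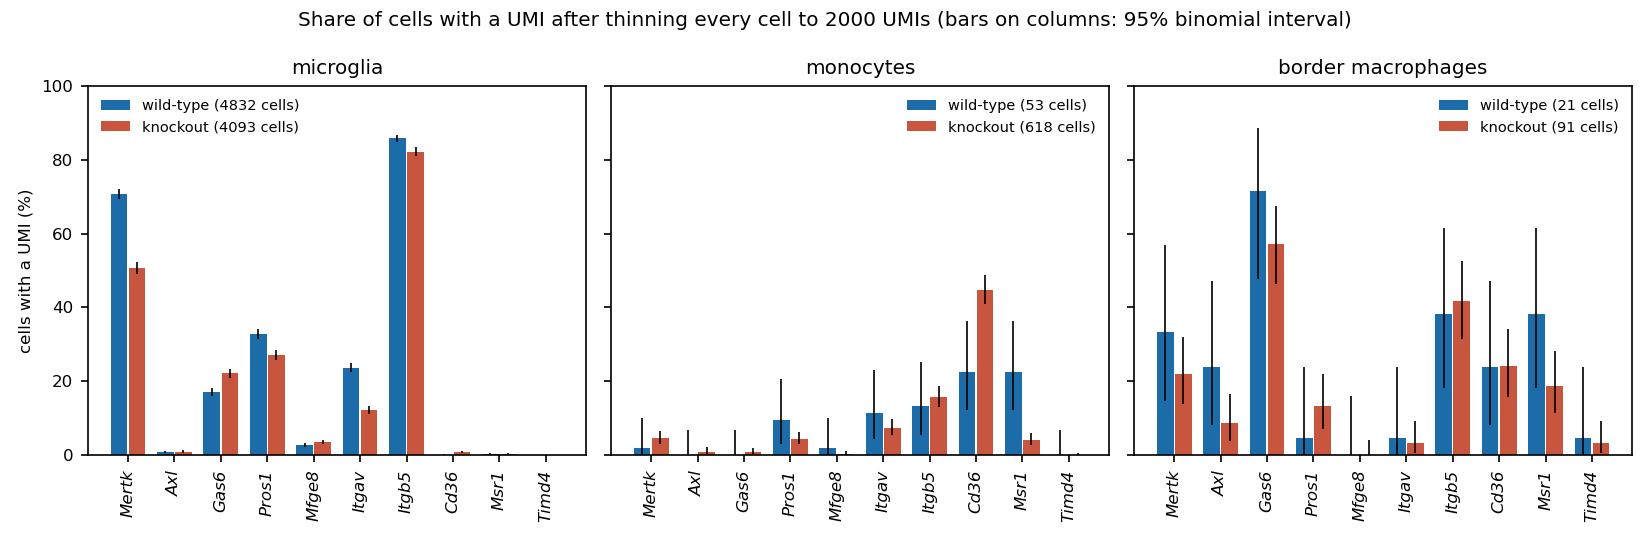
Percent of cells with a UMI of each gene after thinning to 2000 UMIs, for microglia, monocytes and border macrophages, with wild-type columns in blue, knockout columns in red and exact binomial intervals. Mertk in microglia (70.8% and 50.7%) and Itgav in microglia (23.7% and 12.2%) are lower in the knockout library, and Gas6 (17.0% and 22.1%) is higher.

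Mfge8 (ENSMUSG00000030605, chromosome 7, 78783515 to 78798825, minus strand), the bridging protein of the αv integrins, was low in every class. It was at 15.6 CPM (14.6 to 16.7) in wild-type and 15.7 CPM (14.3 to 17.0) in knockout microglia, a plain log2 ratio of 0.00 and a relative one of 0.30 (0.14 to 0.45). Monocytes had 2 UMIs (4.94 CPM) and 13 UMIs (3.51 CPM), and border macrophages 0 and 2 UMIs. The lymphoid cells, at 17.9 CPM (6.56 to 38.9, 6 UMIs), were beside the level of microglia, and 3.03% of them had a UMI after thinning against 2.77% and 3.54% of microglia. Knockout microglia stood above knockout monocytes, by 15.7 against 3.51 CPM and with thinned shares of 3.54% (3.00 to 4.16) against 0.324% (0.0392 to 1.16).

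Itgav and Itgb5 encode the αv and β5 chains of an integrin that binds Mfge8 on a dying cell. In microglia the αv chain was called between the libraries and the β5 chain was not. Itgav (ENSMUSG00000027087, chromosome 2, 83554403 to 83637260, plus strand) was at 137 CPM (134 to 140) in wild-type and 66.9 CPM (64.2 to 69.7) in knockout microglia. The relative log2 ratio was −0.74 (−0.81 to −0.68) and the plain one −1.04. The call held under each of the 15 alternatives, between −1.04 and −0.61. Some of these could not lose it. Leaving out monocytes and border macrophages with any P2ry12 or Tmem119 UMI left microglia unchanged, and the lower fold limit is looser. The share of thinned microglia with an Itgav UMI was 23.7% (22.5 to 24.9) and 12.2% (11.2 to 13.3), and without thinning 65.0% and 34.7%. Among depth bands, the ratio was −0.53 (−1.03 to −0.02) at 1000 to 3000 UMIs, under the limit, and −0.93 to −0.63 in the other 4.

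Itgav was also lower in knockout monocytes with Ace, at 89.2 CPM (52.0 to 143, 17 UMIs) against 43.0 CPM (35.7 to 51.5, 120 UMIs). Its relative log2 ratio there was −0.82, with an interval of −1.56 to 0.00 that reaches equality. In all monocytes the ratio was −0.51 (−1.16 to 0.20), under the limit. Monocytes with Ace held Itgav at 65.1% and 64.4% of the microglial level, above the 2.32 to 9.73% and 2.76 to 7.99% of the microglial check markers in the same cells. In border macrophages it was at 26.2 CPM on 3 UMIs and 20.9 CPM on 10 UMIs.

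Itgb5 (ENSMUSG00000022817, chromosome 16, 33649988 to 33771137, plus strand), the β5 chain, was at 1019 CPM (1011 to 1027) in wild-type and 906 CPM (896 to 916) in knockout microglia. The relative log2 ratio was 0.12 (0.10 to 0.14) and the plain one −0.17, so the sign turns with the scaling. It was found in 85.8% (84.8 to 86.8) and 82.2% (81.0 to 83.4) of thinned microglia. In the shallowest band its relative ratio was 0.61, past the limit, and in the other 4 bands 0.08 to 0.23. Border macrophages had 175 CPM (107 to 270) and 260 CPM (216 to 310), and monocytes 61.7 CPM (40.0 to 91.2) and 71.8 CPM (63.5 to 81.0). In monocytes with Ly6c2 and no Ace it was called higher in the knockout library, at 18.7 CPM (4 UMIs) against 44.8 CPM (41 UMIs), a relative log2 ratio of 1.29 (−0.18 to 3.23). That call was kept under 11 of the 15 alternatives, among them the lower fold limit, which could not lose it. The level of 62.5 CPM (38.7 to 95.6) in lymphoid cells, which was 21 UMIs, lies beside that of monocytes.

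**Figure D4:**
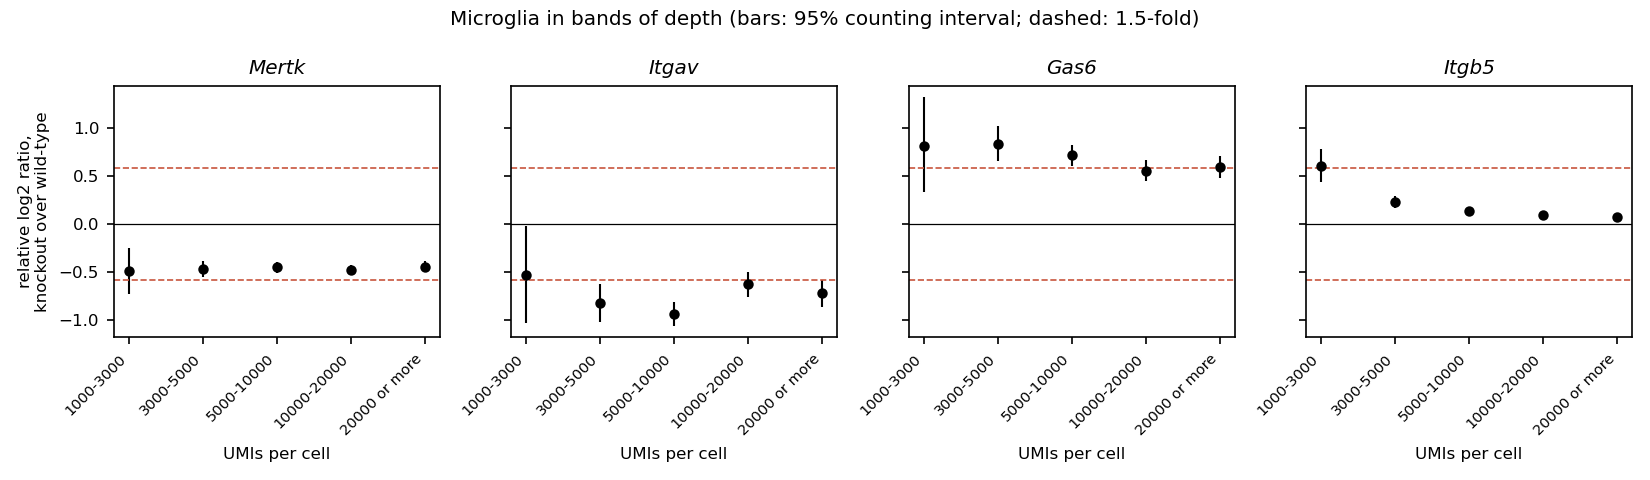
Relative log2 ratio of knockout over wild-type in microglia, by band of UMIs per cell, for Mertk, Itgav, Gas6 and Itgb5, with exact counting intervals and dashed lines at 1.5-fold. Mertk stays between −0.48 and −0.44, Itgav is below 0 and Gas6 above 0 in all 5 bands, and Itgb5 falls from 0.61 in the shallowest band to 0.08 in the deepest.

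The scavenger receptors Cd36 and Msr1, which take up oxidised lipids as well as apoptotic cells, stood higher in monocytes and border macrophages than in microglia. Cd36 (ENSMUSG00000002944, chromosome 5, 17986432 to 18094067, minus strand) was at 198 CPM (157 to 246, 80 UMIs) in wild-type and 318 CPM (299.7 to 336, 1176 UMIs) in knockout monocytes, a relative log2 ratio of 0.88 (0.55 to 1.22). The share of monocytes with Ace differed too. Monocytes with Ace, which carried markers of both patrolling and classical monocytes, were 32 of 55 in the wild-type and 538 of 660 in the knockout library. They held Cd36 at 414 CPM (328 to 517) and 413 CPM (390 to 438). Within them the relative ratio was 0.22 (−0.11 to 0.57), under the limit. Monocytes with Ly6c2 and no Ace had 4.67 CPM (0.118 to 26.0, 1 UMI) and 26.2 CPM (16.8 to 39.0, 24 UMIs).

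Cd36 divided the 2 kinds of monocyte in both libraries. Cells with Ace exceeded those with Ly6c2 and no Ace by a log2 ratio of 6.47 (3.95 to 11.8) in the wild-type and 3.98 (3.40 to 4.63) in the knockout library. Thinned, 40.0% of wild-type and 52.7% of knockout cells with Ace had a Cd36 UMI. Border macrophages had Cd36 at 192 CPM (120 to 291) and 142 CPM (111 to 181), and the lymphoid cells had 0 UMIs.

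In microglia Cd36 was nearly silent, at 0.561 CPM (0.386 to 0.788, 33 UMIs) in wild-type and 4.05 CPM (3.40 to 4.78, 137 UMIs) in knockout cells. This gap was not called because both levels lie under 10 CPM. The microglial level was 0.135% and 0.979% of that in monocytes with Ace. Of the 6 patrolling monocyte markers, 5 (Treml4, Spn, Adgre4, Itgal and Pglyrp1) stood at 0.0182 to 0.745% of their Ace monocyte level in wild-type microglia and at 0.621 to 1.21% in knockout microglia, and the sixth, Eno3, at 3.76% and 3.54%. The part of monocyte RNA in the Cd36 reading of microglia was not tested.

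Msr1 (ENSMUSG00000025044, chromosome 8, 40034726 to 40095714, minus strand) was lower in the knockout library in both classes where it was measured. In monocytes it was at 98.8 CPM (70.6 to 135, 40 UMIs) against 25.1 CPM (20.3 to 30.8, 93 UMIs), a relative log2 ratio of −1.78 (−2.33 to −1.21). It was lower in both kinds of monocyte, from 89.2 to 19.7 CPM in cells with Ace (−1.95, −2.76 to −1.07) and from 107 to 41.6 CPM in cells with Ly6c2 and no Ace (−1.35, −2.13 to −0.53). The wild-type values rest on 17 and 23 UMIs from 32 and 23 cells. Summed neutrophil markers in monocytes with Ly6c2 and no Ace stood at 1512 and 8776 CPM (wild-type and knockout), and natural killer cell markers at 4.67 and 149 CPM. Their part in the results of these cells was not tested. With cells that met several gates counted in, the ratio in all monocytes was −0.35, under the limit.

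In border macrophages Msr1 was at 210 CPM (134 to 312, 24 UMIs) against 103 CPM (75.9 to 136, 49 UMIs), a relative log2 ratio of −1.03 (−1.76 to −0.26). With cells that met several gates counted in, it was −0.10. Without thinning, 12 of 24 wild-type and 33 of 131 knockout border macrophages had an Msr1 UMI, and with it 38.1% (18.1 to 61.6) and 18.7% (11.3 to 28.2). Of the 24 wild-type UMIs, 91.7% came from 10 cells. In microglia Msr1 was at 1.75 and 1.89 CPM and in lymphoid cells at 0 UMIs. Wild-type border macrophages with Lyve1 had Msr1 at 389 CPM (156 to 801) and those without at 83.3 CPM (10.1 to 301), and the knockout values were 132 CPM (60.5 to 251) and 70.2 CPM (30.3 to 138), with overlapping intervals in both libraries.

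Timd4 (ENSMUSG00000055546, chromosome 11, 46701620 to 46735177, plus strand), TIM-4, a direct phosphatidylserine receptor of long-lived resident macrophages, had few UMIs in every class. Border macrophages had 1 UMI (8.74 CPM, 0.221 to 48.7) in the wild-type and 10 UMIs in 9 cells (20.9 CPM, 10.0 to 38.5) in the knockout library. Microglia had 5 and 6 UMIs (0.0850 and 0.177 CPM) in 4968 and 4436 cells. Monocytes had 0 UMIs in both libraries, which limits the level to 7.41 and 0.810 CPM at 3 UMIs. Its highest place in wild-type border macrophages rests on that single UMI. Cells that met the gates of both microglia and border macrophages held 18 and 23 UMIs. No difference between the libraries could be read at this depth.

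Set against microglia of the same library, the genes divided by direction. Of the 8 genes measured in both libraries, 4 were at least 2-fold higher in border macrophages in both (Cd36, Axl, Gas6 and Msr1), against 5.47% of 7556 genes, and 4 at least 2-fold lower (Mertk, Pros1, Itgav and Itgb5), against 6.78%. In monocytes 2 of 8 were higher (Cd36 and Msr1), against 12.6% of 8260 genes, and 5 lower (Mertk, Gas6, Pros1, Mfge8 and Itgb5), against 23.1%. These counts are a description. Cd36, Axl and Msr1 were under 10 CPM in microglia and counted as measured through the class where they were high, and Mfge8 and Gas6 were measured against monocytes through microglia, so their directions follow from the floor. The classes were cut by genes other than these 10, but the 10 were chosen with these results known. Among border macrophages without any P2ry12 or Tmem119 UMI, the 4 higher genes stayed past 2-fold and 2 of the lower ones did (Mertk and Itgb5). With cells that met several gates counted in, 1 gene was higher and 0 were lower.

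The scavenger receptors stood far above microglia. Cd36 exceeded microglia by log2 8.42 (7.57 to 9.24) and 5.14 (4.70 to 5.57) in border macrophages, and by 8.46 (7.86 to 9.09) and 6.29 (6.04 to 6.56) in monocytes. Msr1 exceeded it by 6.90 (6.20 to 7.56) and 5.76 (5.20 to 6.32) in border macrophages. On the other side, Itgb5 was lower in border macrophages by a log2 ratio of −2.54 (−3.26 to −1.92) and −1.80 (−2.07 to −1.55), and Gas6 was at least 13.3-fold lower in wild-type monocytes, with 3 UMIs over the class as the floor. The lower call of Mfge8 in wild-type monocytes rests on 2 UMIs, with a log2 ratio of −1.66 (−4.71 to 0.20). Pros1, Itgav and Itgb5 in border macrophages stood at 17.1 to 37.0% of their microglial level, which lies inside the range of the microglial check markers there. The part of microglial RNA in those levels was not tested.

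**Figure D5:**
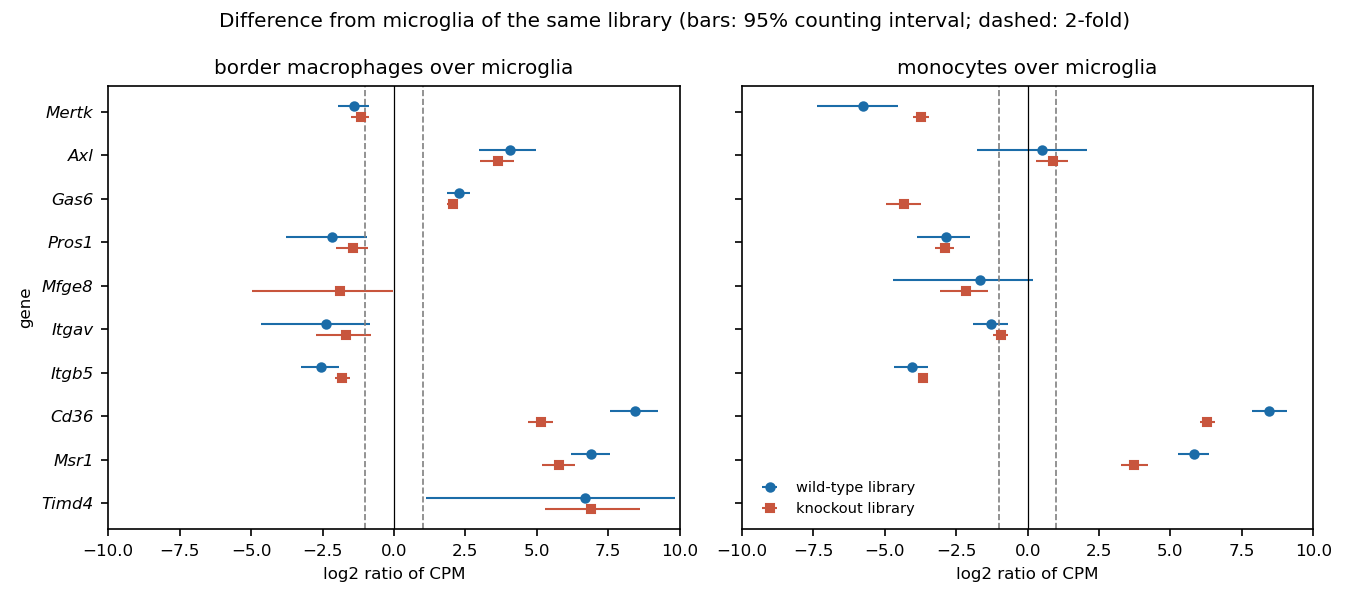
Log2 ratio of CPM in border macrophages (left) and monocytes (right) over microglia of the same library, for the 10 genes, with wild-type circles, knockout squares, exact counting intervals and dashed lines at 2-fold. Classes with 0 UMIs of a gene are not drawn. Cd36 and Msr1 lie to the right in both panels, Gas6 lies to the right for border macrophages and to the left for monocytes, and Mertk and Itgb5 lie to the left in both.

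Other genes of engulfment were read in microglia from 5 lists with 60 genes, of which 37 were measured. Relative to the median, 6 were called higher and 3 lower, against the 14.9% and 12.4% of all genes. On plain CPM, where the median of all measured genes was −0.29, 2 were past the limit upward and 11 downward. The share of all genes past it on plain CPM was not taken, so nothing is read from these plain counts. Among TAM and other phosphatidylserine receptors, 1 of 5 measured was higher: Trem2, a lipid receptor of microglia, went from 1912 to 2566 CPM (0.72, plain 0.42), and the lowest was Lrp1, an endocytic receptor, from 436 to 268 CPM (−0.41). Of 5 measured scavenger receptors 0 were called, and they ran from Scarb1 (−0.23) to Cd68 (0.51). Of 9 measured integrin partners and bridging proteins, 5 were higher: Lgals3, galectin-3, went from 6.48 to 14.7 CPM (1.47), Anxa5 was at 0.80, and the complement genes C1qa, C1qb and C1qc were at 0.83, 0.86 and 0.92. On plain CPM Anxa5, C1qa and C1qb were under the limit, at 0.50, 0.53 and 0.57. Lgals3 was under 10 CPM in the wild-type library and counted as measured through the knockout library, so its direction follows from the floor. The lowest of that list was Itga5 (−0.54), measured likewise through the wild-type library alone (12.9 against 7.23 CPM).

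Downstream, 0 of 10 measured engulfment signalling genes were higher and 2 lower: Dock2, a Rac activator, went from 214 to 110 CPM (−0.66), and Pik3cg, a lipid kinase, was at −0.64. The highest was Rac1 (0.25). Of 8 measured genes of do-not-eat-me signals and later steps, 1 was lower: Abca1, the cholesterol exporter, from 336 to 157 CPM (−0.80), and the highest was Lamp1 (0.52). These lists hold genes that were already known to differ between these libraries, so their counts are a description.

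The genes whose levels most resembled those of the 10 were found over 8 sums of cells (microglia, monocytes with Ace, monocytes with Ly6c2 and no Ace, and border macrophages, each in 2 libraries), among 8098 genes. The measure was Pearson's r of log2(CPM + 1), given as a description, since the sums share libraries and depth. Mertk was most like Siah1a (0.993), Tmcc3 (0.993) and Akr1b10 (0.991), and Gas6 like Wtip (0.995), B3galnt1 (0.987) and Tlr5 (0.987). Itgav was most like Crlf3 (0.982), Pros1 like Jam2 (0.992) and Itgb5 like Gtf2h2 (0.994). Axl was most like Sash1 (0.974), Cd36 like Ybx1 (0.951), Msr1 like Shtn1 (0.992) and Timd4 like Gm37239 (1.00). The value for Timd4 rests on 1 and 10 UMIs in border macrophages, with 0 in monocytes and 0.0850 and 0.177 CPM in microglia. With 8 points and this many genes, high values of r are common. Mfge8 did not reach 20 CPM in any sum and was left out.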

How the data were processed

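Single-cell libraries were compared, 1 per genotype. Each deposited matrix gives UMI counts, whole numbers for every gene in every barcode, which the authors made with Cell Ranger (version 7.0.0 per the file headers, version 6.0 per the labels' protocols) on GRCm39, per the labels' protocols. Seurat and a filter on cells under 500 genes are named in the labels' protocols, but the deposited counts include 207 and 1463 barcodes under it and so were filtered again here. The labels' protocols name the 3′ v2 chemistry.

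With Python 3.11.15, numpy 2.4.6, scipy 1.17.1, pandas 2.3.3 and matplotlib 3.10.9, cells with at least 500 genes and at most 10% mitochondrial UMIs were kept and gated at 1 UMI of each gate gene. Monocyte and border cells could hold a UMI of P2ry12 or Tmem119 but not of both. Lymphoid cells, with at least 2 of 8 lymphoid markers, were kept out of the monocytes. No doublet caller was run. Cells that met several gates were left out, and doublets within a class could remain. The microglial check markers in the cells left out stood at medians of 74.9 to 93.1% of the microglial level. How many of them were doublets was not tested. UMI counts were summed over each class and scaled to CPM, so deep cells weigh more. Shares of cells with a UMI were taken after thinning each cell to 2000 UMIs (seed 1). Intervals are exact Poisson (levels), conditional binomial (ratios) and Clopper-Pearson (shares) at 95%. The calls between libraries were tested on simulated data, while the intervals were not. A level of 0 is limited by 3 counts. Of the 55357 genes, 54749 (98.9%) were matched to GENCODE by identifier, which gave the coordinates.

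The 10 genes, the lists, the markers and the alternatives were chosen with earlier results of these data known. Named were all 10 genes, Msn, the highest and lowest measured gene of each list, and the 3 genes most like each of the 10 (a part of which is printed). The called genes of the lists were named after their values were seen. Of the 15 alternatives tried, the effect is given at the end.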

Additional observations from a re-analysis of the deposited data

How the results depend on the processing

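No paired analysis was possible because each genotype had 1 library. The 55 wild-type monocytes and 24 wild-type border macrophages give wide counting intervals. All 15 alternatives were run. Of 939 single values under an alternative, 821 stayed inside the counting interval of the reported value and 109 moved outside it. The remaining 9, all of called results, turned in sign. Turns in sign of uncalled results, such as Pros1 and Itgb5 in microglia on plain CPM, were not counted apart from the values inside or outside the interval.

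Counting cells that met several gates adds cells of the microglial gate to the other classes by construction. It turned Mertk in monocytes to −0.70 (with Ace −0.59, with Ly6c2 and no Ace −0.87), and, in monocytes with Ly6c2 and no Ace, Pros1 to −0.31, Itgb5 to −0.29 and Msr1 to 0.036. It also turned Mertk in wild-type border macrophages over microglia to 0.027. Cells of 5000 to 10000 UMIs alone turned Mertk and Cd36 in monocytes with Ly6c2 and no Ace to −0.22 and −0.63. As reported, Mertk, Pros1 and Cd36 were under 10 CPM in the wild-type cells of this kind, so the direction of those calls follows from the floor.

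With cells of several gates counted in, the genes higher in knockout microglia numbered 2, monocytes 1 and border macrophages 2, and those lower in monocytes 2. Against microglia, 1 gene was then higher and 0 lower in border macrophages, and 0 lower in monocytes. Plain CPM ratios gave 2 lower and 0 higher in microglia and 2 lower in monocytes. Median-of-ratios scaling gave 2 higher in border macrophages. Lower limits on the fold gave 2 lower in microglia, 2 lower in monocytes, and 4 lower and 2 higher in border macrophages. Thinning gave 2 higher in microglia, 2 lower in monocytes and 2 lower in border macrophages. Cells of 5000 to 10000 UMIs gave 2 higher in microglia, 3 lower and 1 higher in monocytes, and 2 lower and 1 higher in border macrophages. Without a floor, 3 were higher in microglia and 3 in border macrophages. A floor of 30 CPM gave 1 higher in monocytes between libraries and 1 against microglia. In border macrophages a gate at 2 UMIs gave 2 lower and 2 higher, at least 1000 genes 2 lower, at most 5% mitochondrial UMIs 2 lower and 2 higher, and the mean of each cell's CPM 3 lower and 2 higher. Leaving out cells with any P2ry12 or Tmem119 UMI gave 1 higher there and 2 lower against microglia. The causes of these changes were not tested. The share of all genes past the limits was not taken under each setting, so nothing is read from these counts about the genes as a set.

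Among single calls, Gas6 in microglia was kept under 14 of 15 alternatives, Msr1 in monocytes and in border macrophages under 14 each, and Cd36 in monocytes under 13, lost with the mean of each cell's CPM (0.49) and with cells of 5000 to 10000 UMIs (0.56). The lower fold limit could lose no call. Leaving out monocytes and border macrophages with any P2ry12 or Tmem119 UMI could lose none in microglia.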
